A study of Mus musculus with 16 samples.

Results

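Dentate gyrus granule neurons were examined in single-nucleus RNA libraries from mouse hippocampus, where they made up 8037 of 147873 nuclei. A granule neuron nucleus was chosen by a marker rule on its unique molecular identifiers (UMIs, 1 for each captured RNA molecule). It needed at least 1 UMI of Prox1, at least 4 UMIs of Prox1, C1ql3, Plk5 and Dsp together, at least 1 UMI of Slc17a7, at most 1 UMI of Gad1 and Gad2 together, and at most 1 UMI of Fibcd1 and Iyd together. Nuclei were barcodes with at least 500 UMIs, at least 300 genes and at most 5% mitochondrial UMIs. The 16 libraries came from female mice aged 9 months, 4 in each of 4 groups. Ch25h was intact (Ch25h+/+) or deleted (Ch25h-/-), and within each genotype mice were labelled Tau- or Tau+. The mouse tau gene Mapt was found in Tau- libraries too, so an effect of tau below means Tau+ against Tau-. Ch25h encodes the enzyme that makes 25-hydroxycholesterol. The tau line, the promoter that drives tau and the design of the Ch25h allele are not given in the sources used here. The labels do not state that each library is a separate mouse, and p-values measure the spread between libraries.

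Granule neurons are the principal excitatory cells of the dentate gyrus. They receive input from the entorhinal cortex on their dendrites and send mossy fibres, which are rich in vesicular zinc, to the mossy cells and CA3 pyramidal neurons. They keep the transcription factor Prox1 into adulthood, hold large amounts of the calcium buffer calbindin (Calb1), and express a GABA receptor subunit set that carries tonic inhibition. New granule neurons are added throughout life in mice, and Dcx, Sox11 and Sox4 mark the young ones. The dentate gyrus is an early site of tau accumulation in several tau transgenic mice.

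The nuclei chosen by the rule carried the genes of granule neurons that the rule did not use. There were 9 such genes (Calb1, C1ql2, Tdo2, Lct, Trpc6, Dock10, Rfx3, Glis3 and Stxbp6), each with UMIs in every library. Their summed level was 4226 to 4883 CPM (counts scaled to library size) over the 16 libraries, against 276 to 394 CPM in the 2437 nuclei called CA pyramidal. This difference is a description, since the rule picked the nuclei. Prox1 itself stood at 306 to 397 CPM, C1ql3 at 188 to 356 CPM, Plk5 at 57.4 to 88.7 CPM and Dsp at 41.3 to 64.3 CPM. Of the members, 1853 lay just inside the threshold with 4 UMIs of the marker genes, and 1916 nuclei lay just outside it with 3. In all, 5117 nuclei with a Prox1 UMI met every condition except the marker sum. Nuclei at 4 marker UMIs had a median of 6541.5 UMIs and those at 3 a median of 6130, and Calb1 stood at a median of 117 CPM and 102 CPM in them.

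Markers of other cell types were measured in the members. Gad2 was at 0 to 1.23 CPM, a level the rule sets by its limit on Gad1 and Gad2. The endothelial gene Cldn5, which the rule did not use, was at 0 in 12 of 16 libraries. Some genes listed for other types were high in granule nuclei themselves, among them Adarb2 at 1363 to 1813 CPM, St18 at 201 to 275 CPM and Cpne4 at 237 to 359 CPM, so sums over those lists do not measure contamination alone. Scrublet, a program that scores nuclei against simulated doublets, marked 972 members (12.1%), against 7.47% of all nuclei. Shares, most counts of called genes in granule nuclei and the interferon sums of 1 group are also given without these nuclei; the comparison with CA pyramidal nuclei and the counts of nuclei with many interferon UMIs were not run without them. Median UMIs per member ranged from 6932 to 9335 over libraries, and 296 to 904 members were found per library. Along the first principal component (26.8% of the variance) the libraries split into 2 sides, which set replicates 1 and 2 of every group apart from replicates 3 and 4. Replicate numbers follow the order of the deposit and the labels name no batch. Every group had 2 libraries on each side. Between the sides 1677 of 13895 genes (12.1%) passed edgeR's test, a count that describes the split and is no test of it, since the same values defined the sides. Over 120 pairs of libraries, members shared 8 cell barcodes in all. Within groups, all 24 pairs of libraries differed by more than counting noise.

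Ch25h was too rare to check the genotype labels. Members held 1 Ch25h UMI in all in each of the Ch25h+/+ groups and 5 in each of the Ch25h-/- groups. In all nuclei Ch25h was at 0.173 to 0.738 CPM in Ch25h+/+ libraries and at 0.214 to 0.547 CPM in Ch25h-/- libraries, which overlap. Which part of the gene was deleted is not given, so group names below are those of the labels.

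The mean share of granule neurons was highest in the Ch25h-/- Tau- group. In Ch25h-/- Tau- libraries granule nuclei were 7.47%, 5.39%, 10.9% and 9.06% of all nuclei (8.20% ± 2.32, SD, n = 4). In Ch25h+/+ Tau- libraries they were 6.24%, 3.49%, 4.09% and 3.41% (4.31% ± 1.32). In Ch25h+/+ Tau+ libraries they were 3.96%, 4.47%, 6.73% and 4.03% (4.80% ± 1.31), and in Ch25h-/- Tau+ libraries 4.64%, 6.73%, 4.29% and 3.53% (4.80% ± 1.37). The groups overlap in every pair. Without doublets the libraries were at 5.23% to 10.4% in Ch25h-/- Tau-, 3.16% to 5.95% in Ch25h+/+ Tau-, 3.83% to 6.45% in Ch25h+/+ Tau+ and 3.44% to 6.49% in Ch25h-/- Tau+. Counting error within a library was small beside the spread between libraries: the exact 95% Clopper-Pearson interval of the library at 6.24% was 5.74% to 6.77%, and it covers counting error only.

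None of the 6 effects on the share passed the exact permutation test. Ch25h loss in Tau- mice gave a difference of 3.89 percentage points (two-sided exact permutation p = 0.0571, adjusted over 6 effects 0.131), and tau in Ch25h-/- mice gave -3.40 points (exact p = 0.0571, adjusted 0.131). With 70 arrangements the smallest p the test allows is 0.0286. Over both tau states Ch25h loss gave 1.95 points (exact permutation p = 0.0653, adjusted 0.131). Tau over both genotypes gave -1.46 points (exact permutation p = 0.153, adjusted 0.229). Tau in Ch25h+/+ mice gave 0.487 points and Ch25h loss in Tau+ mice 0.00335 points, with exact permutation p of 0.514 and 1. As a share of excitatory nuclei the order of the means was the same at the top: 18.0% ± 5.94 in Ch25h-/- Tau-, 12.4% ± 2.51 in Ch25h-/- Tau+, 12.2% ± 3.58 in Ch25h+/+ Tau+ and 10.7% ± 2.51 in Ch25h+/+ Tau-. On this scale Ch25h loss in Tau- mice gave 7.30 points (exact permutation p = 0.0857, adjusted 0.309). The rule counts UMIs, so shares not thinned also depend on depth. Median UMIs over all nuclei averaged 5397 in Ch25h-/- Tau-, 4997.5 in Ch25h-/- Tau+, 4630.5 in Ch25h+/+ Tau- and 4529 in Ch25h+/+ Tau+. The library with the highest share, Ch25h-/- Tau- replicate 3, also had the highest median (6508). Fewer granule cells and a dissection that took less of the dentate gyrus cannot be told apart in these shares.

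**Figure D1:**
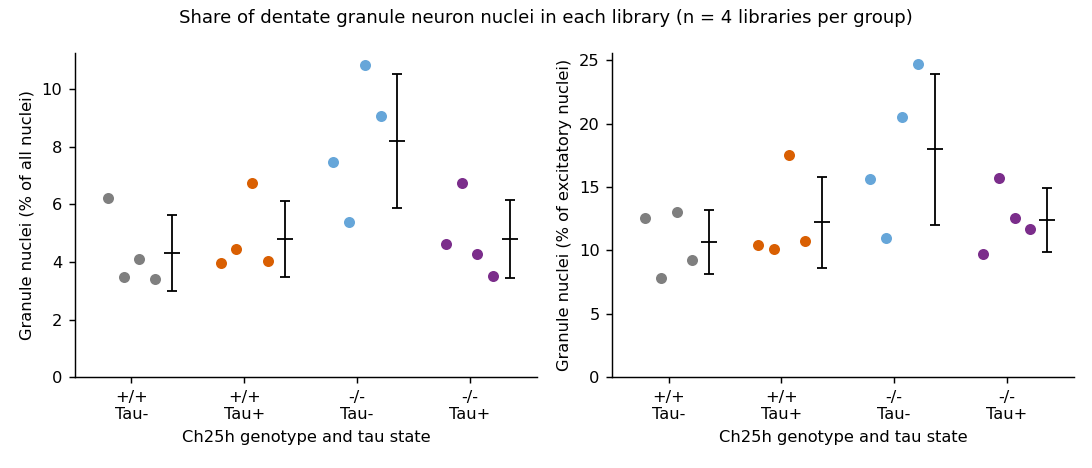
Each dot is the share of granule neuron nuclei in 1 library, as a percentage of all nuclei (left) and of excitatory nuclei (right); the horizontal tick and bar to the right of each group are the mean and SD of 4 libraries. The 4 Ch25h-/- Tau- libraries reach 10.9% of all nuclei, and their lowest, 5.39%, lies within the range of the other groups.

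The genes listed for granule neurons differed in how much they varied between libraries. Over 6656 genes with at least 20 CPM, the median coefficient of variation over the 16 libraries was 11.9%. The potassium channel partner Kcnip4 varied by 5.45%, with 10723 to 13020 CPM. The GABA receptor subunit Gabra4 varied by 8.16%, the NMDA receptor subunit Grin2a by 8.58% and the tonic-inhibition subunit Gabrd by 10.1%. Markers outside the rule lay on either side of that median. Rfx3, a transcription factor, varied by 5.24%, while Calb1 varied by 15.8% (80.8 to 157 CPM), the synaptic organizer C1ql2 by 28.4% (14.9 to 45.8 CPM) and Tdo2, an enzyme of tryptophan breakdown that marks mature granule cells, by 34.2% (4.64 to 17.2 CPM), though its mean of 9.25 CPM is below the level of the genes behind that median. The genes that chose the nuclei varied by 8.03% (Prox1), 16.7% (C1ql3), 13.2% (Plk5) and 12.7% (Dsp), values that the rule itself helps to set. Values here are CPM scaled by edgeR's TMM factors, called normalised CPM, and compare a gene with itself across libraries only.

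Among nuclei thinned to 2000 UMIs, at least 1 UMI was found for Grin2a in 99.3% of members (median over libraries), the activin subunit gene Inhba in 16.2% and the growth factor gene Bdnf in 12.03%. In oligodendrocyte nuclei, which should lack these transcripts, the shares were 14.5% for Grin2a, 0.700% for Inhba and 1.03% for Bdnf. The activity genes Arc (0.514%) and Fos (0.221%) and the peptide gene Npy (0.199%) lay below their shares in oligodendrocytes (2.53%, 0.447% and 0.483%). These genes therefore cannot be told from background by this measure. The young-neuron gene Dcx was found in 2.0001% against 1.11%, and Sox11 in 3.70% against 0.598%. Eomes, a marker of intermediate progenitors, was at 0 in 15 of 16 libraries. The opioid peptide genes were found in few nuclei, with Pdyn in 1.24% (against 0%) and Penk in 0.801% (against 0.221%).

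Few genes differed between Tau+ and Tau- granule neurons, and the 2 with the largest fold change were neighbours on chromosome 3. In the comparison of Tau+ with Tau- over both Ch25h genotypes, 13 of 13895 genes passed an adjusted p under 0.05 (0.0936%), 10 higher and 3 lower. The test was edgeR's quasi-likelihood test on UMI counts summed per library, with Benjamini-Hochberg adjustment; at an unadjusted p under 0.05 there were 1166 genes (8.39%), and DESeq2 called 53. With a term for the 2 sides of the library split 41 genes were called, the 13 among them. The same values defined the sides, and each side holds 2 libraries of every group, so the 41 are no separate support for the 13. Without the marked doublets 5 genes were called: Gm43049, Gm32754, Prnp and Adamts6, which were shared, and Kitl. Leaving out 1 library gave 8 to 31 calls. Dropping any 1 of Ch25h+/+ Tau- replicates 1 and 2 and Ch25h+/+ Tau+ replicates 1 and 4 gave 8 calls; dropping Ch25h-/- Tau+ replicate 3 gave 31. All 16 of those fits called Gm43049, Gm32754, 1700030L20Rik, Prnp, Trf, Apod and Ndst3.

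The long noncoding RNA Gm43049 separated Tau+ from Tau- libraries completely. Its normalised CPM was 0 in all 4 Ch25h+/+ Tau- libraries and 0, 0, 0 and 0.141 in Ch25h-/- Tau- libraries. In Ch25h+/+ Tau+ it was 53.4, 67.4, 66.4 and 55.0, and in Ch25h-/- Tau+ 67.3, 69.6, 56.9 and 56.3. The 8 Tau+ libraries held 1982 UMIs against 1 in the 8 Tau- libraries, a ratio of 2460 after scaling to all member UMIs (95% counting interval 441 to 97224). The gene lies at chr3:140692038-140760704 of GRCm38. A second noncoding RNA, Gm32754, at chr3:140904998-140917459, held 189 UMIs against 1, a ratio of 235 (95% counting interval 41.6 to 9315). Another gene of this chromosome, 1700030L20Rik at chr3:136435270-136449349, held 78 UMIs against 3 (ratio 32.3, interval 10.6 to 160). Each Tau+ library held at least 134 Gm43049 UMIs, so this gene follows the tau labels in every library. Gm43049 also rose in CA pyramidal nuclei, where its log2 fold change was 9.45 (edgeR adjusted p = 3.66e-16). Where the tau transgene sits is not given in the sources used here, and the relation of these genes to it was not tested.

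Within 1 Mb of Gm43049, 3 of 4 tested genes had an unadjusted p under 0.05, itself included, between 1 and 5 Mb 2 of 38 did, between 5 and 10 Mb 3 of 39, between 10 and 15 Mb 9 of 39 (23.1%) and beyond 15 Mb 57 of 585 (9.74%). The third gene within 1 Mb, beside Gm43049 and Gm32754, was Unc5c, a netrin receptor that guides axons, 0.924 Mb away between midpoints. It was at 341 to 439 normalised CPM in Tau+ libraries of Ch25h+/+ mice and at 372 to 419 in those of Ch25h-/- mice. In Tau- libraries it was at 396 to 582 and 473 to 541. Its log2 fold change was -0.37 ± 0.08 (SE; edgeR adjusted p = 0.0710), which missed the threshold, and DESeq2 gave an adjusted p of 0.00848. The share of genes with an unadjusted p under 0.05 was 10.5% of 705 tested genes on chromosome 3 and 8.28% of 13182 on the others.

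Prnp, which encodes the prion protein, rose in every Tau+ library. It lies at chr2:131909928-131938429. Its normalised CPM was 77.5, 56.0, 88.9 and 82.0 in Ch25h+/+ Tau- and 63.9, 66.5, 67.2 and 75.8 in Ch25h-/- Tau-. It was 105, 109, 98.7 and 115 in Ch25h+/+ Tau+ and 107, 98.6, 135 and 130 in Ch25h-/- Tau+, so the lowest Tau+ library was above the highest Tau- library. The log2 fold change was 0.63 ± 0.09 (SE; edgeR adjusted p = 0.00143), and 0.62 without doublets (adjusted p = 0.000677). In CA pyramidal nuclei it was 0.70 (adjusted p = 0.000314). The mouse prion gene promoter drives tau in some widely used lines; whether counts assigned to Prnp come in part from such a construct was not tested. Mapt, the mouse tau gene, was at 268 to 361 normalised CPM in Tau- libraries and at 307 to 369 in Tau+ libraries, and its log2 fold change of 0.15 ± 0.06 did not pass (edgeR adjusted p = 0.484). Mapt and Prnp were the 2 of 14 tested genes in the list of tau and other microtubule-associated proteins with an unadjusted p under 0.05. Over all tested genes the share was 8.39%.

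Adamts6, a secreted metalloprotease of the extracellular matrix, rose with tau (chr13:104287835-104496695). Its normalised CPM was 16.4, 14.4, 12.5 and 15.3 in Ch25h+/+ Tau- and 16.2, 10.7, 8.21 and 11.4 in Ch25h-/- Tau-. It was 20.8, 26.1, 23.1 and 17.7 in Ch25h+/+ Tau+ and 44.9, 31.0, 17.7 and 33.6 in Ch25h-/- Tau+. All Tau+ libraries were above all Tau- libraries. The log2 fold change was 1.02 ± 0.17 (SE; edgeR adjusted p = 0.0145), and 1.11 without doublets (adjusted p = 0.00539). It was called in 15 of the 16 fits that left out a library and lost without Ch25h+/+ Tau- replicate 2 (adjusted p = 0.0524). It was also lost with at least 6 marker UMIs (0.95, adjusted p = 0.0889) and on the second side of the library split alone (0.97, adjusted p = 0.189). In CA pyramidal nuclei it was 0.14 (adjusted p = 0.932), and the difference between the classes did not pass (0.85 ± 0.27, adjusted p = 0.457).

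Ndst3 (chr3:123526166-123690853), which modifies heparan sulfate chains, fell with tau in these nuclei. Ndst3 was at 55.1, 60.5, 62.6 and 58.8 normalised CPM in Ch25h+/+ Tau- and at 51.3, 71.7, 65.8 and 63.9 in Ch25h-/- Tau-. It was at 38.1, 31.5, 36.5 and 46.6 in Ch25h+/+ Tau+ and at 48.1, 32.6, 49.99 and 44.9 in Ch25h-/- Tau+, with no overlap. Its log2 fold change was -0.58 ± 0.10 (edgeR adjusted p = 0.0143), and -0.43 without doublets (adjusted p = 0.244). Gm45323, a noncoding RNA at chr8:49959483-50013384, also fell, at 3.9996 to 6.18 normalised CPM in Tau+ libraries and at 5.35 to 16.9 in Tau- libraries (log2 fold change -1.10 ± 0.21, adjusted p = 0.0479; -0.86 without doublets, adjusted p = 0.291). Gm45323 was called in 2 of the 16 fits that left out a library, with adjusted p up to 0.143.

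**Figure D2:**
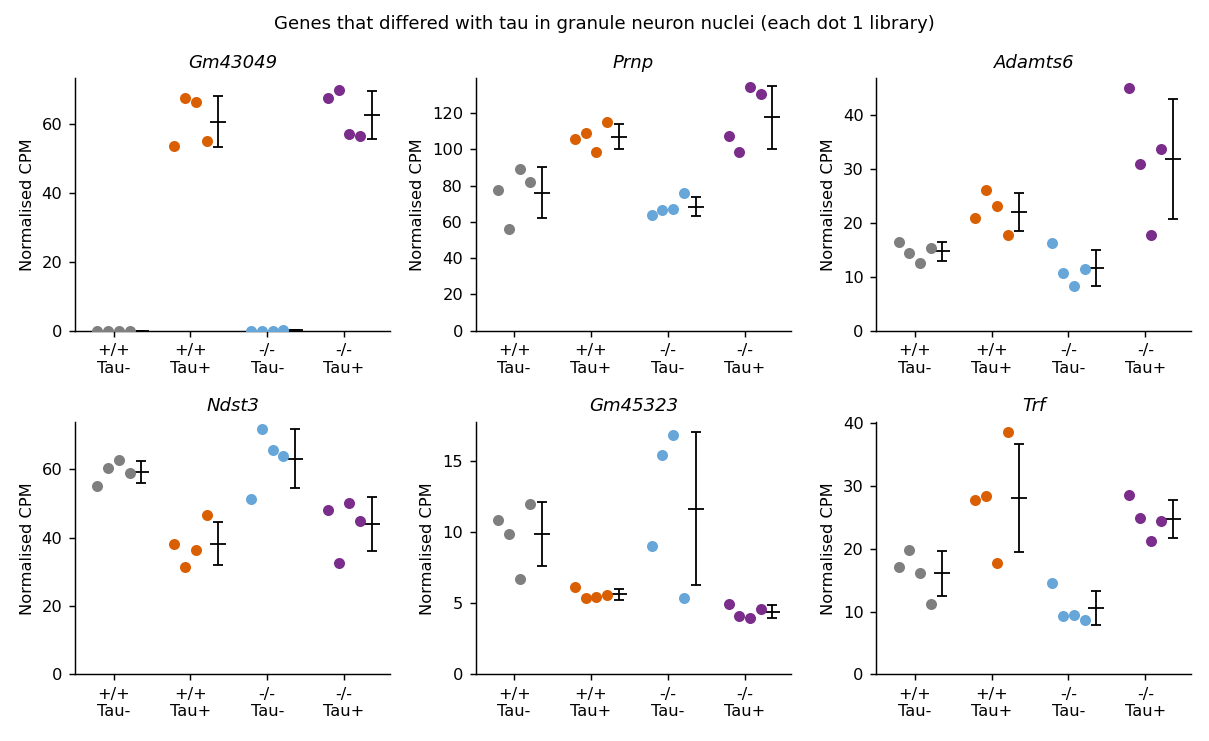
Normalised CPM of 6 genes in granule neuron nuclei, 1 dot for each library, with the mean and SD of 4 libraries beside each group. Gm43049 is near 0 in Tau- libraries and at 53.4 to 69.6 in Tau+ libraries; Prnp, Adamts6 and Ndst3 do not overlap between Tau+ and Tau-, while Gm45323 and Trf do.

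Of the other called genes, Trf, Apod and C4b are known mainly from glia and all rose. Trf (chr9:103204001-103230444), the iron carrier transferrin of oligodendrocytes, was at 17.1, 19.8, 16.2 and 11.2 normalised CPM in Ch25h+/+ Tau- and at 14.5, 9.34, 9.38 and 8.72 in Ch25h-/- Tau-. It was at 27.7, 28.3, 17.7 and 38.6 in Ch25h+/+ Tau+ and at 28.5, 24.9, 21.1 and 24.4 in Ch25h-/- Tau+. Its log2 fold change was 1.01 ± 0.15 (edgeR adjusted p = 0.00591), and 0.67 without doublets (adjusted p = 0.194). The lipid carrier gene Apod gave 0.99 ± 0.15 (adjusted p = 0.00639), and 0.71 without doublets (adjusted p = 0.291). The complement gene C4b gave 2.44 ± 0.44 (adjusted p = 0.0338) at low counts, with 8 and 16 UMIs in the Tau- groups against 59 and 49 in the Tau+ groups and no overlap. It was called in 6 of the 16 fits that left out a library. In the members the summed level of 8 oligodendrocyte markers was 467 to 622 CPM in Ch25h+/+ Tau+ and 466 to 538 in Ch25h-/- Tau+, against 391 to 454 and 364 to 463 in the Tau- groups. Without doublets these sums were 365 to 417 and 355 to 365, against 369 to 388 and 319 to 381. In all nuclei Trf was at 30.5 to 80.2 CPM in Tau- and at 80.9 to 150 CPM in Tau+ libraries. The part of these values in the calls of Trf, Apod and C4b was not tested. In barcodes of under 100 UMIs, which hold free RNA, Trf was at 163 to 357 CPM in Tau- and at 264 to 672 CPM in Tau+ libraries. Gm44148 (log2 fold change 1.73 ± 0.33, edgeR adjusted p = 0.0479) and Mboat1, a lysophospholipid acyltransferase (1.57 ± 0.30, adjusted p = 0.0479), were also called. Both overlapped between Tau+ and Tau- libraries and were called in 4 and 2 of the 16 fits that each left out a library.

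Of the 20 gene lists, 18 held 0 genes called by edgeR in the tau comparison. In those 18 DESeq2 called 1 glutamate receptor, 2 vesicle genes, 3 axon guidance genes and 2 interferon-stimulated genes. Granule identity genes outside the rule had 0 of 14 tested genes at an unadjusted p under 0.05, with a median log2 fold change of -0.02. In the presynaptic list, 10 of 32 vesicle release and mossy fibre zinc genes had such a p, 8 of them lower, with a list median of -0.03. Unc13c, a vesicle priming factor, was at 27.7 to 60.5 normalised CPM in Tau- and at 17.1 to 36.3 in Tau+ libraries (log2 fold change -0.77 ± 0.16, edgeR adjusted p = 0.0986). Rab3c, a synaptic vesicle GTPase, gave -0.35 ± 0.08 (adjusted p = 0.113). Of 52 axon guidance and adhesion genes 14 had a low unadjusted p, 13 of them lower, with a median of -0.06, and Tenm4, a teneurin that helps wire synapses, gave -0.36 ± 0.08 (adjusted p = 0.0728). Across all tested genes the median was 0.00 and 8.39% had an unadjusted p under 0.05.

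Glutamate receptor genes had 9 of 30 at an unadjusted p under 0.05, 6 lower, against 8.39% of all tested genes. The list counts that follow are set against the same share. Cacng3, an auxiliary subunit of AMPA receptors, was at 147 to 184 and 159 to 179 normalised CPM in the Tau- groups and at 122 to 147 and 128 to 150 in the Tau+ groups (log2 fold change -0.29 ± 0.06, edgeR adjusted p = 0.0728). Grm2, a presynaptic glutamate receptor of mossy fibres, gave 0.36 ± 0.10 (adjusted p = 0.207) and did not overlap between Tau+ and Tau- libraries. Over all genes 15 of 13895 (0.108%) showed no overlap. GABA receptor genes had 2 of 14, both lower: Gabrb2 (-0.13 ± 0.05, adjusted p = 0.345) and Gabra2 (-0.23 ± 0.11, adjusted p = 0.571). Sodium and calcium channels had 6 of 26, 4 of them lower, with Ryr3, a calcium release channel, at -0.23 ± 0.06 (adjusted p = 0.205) and Cacna2d3 at -0.19 ± 0.06 (adjusted p = 0.319). Potassium and HCN channels had 5 of 37, 4 of them lower, including Kcnn2 (-0.20 ± 0.06, adjusted p = 0.304). Calcium buffers and calmodulin kinases had 3 of 20, 2 of them lower, and the higher one was Camk2d at 0.53 ± 0.24 (adjusted p = 0.584).

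No gene of the stress, energy and lipid lists was called by edgeR or DESeq2 for tau over both genotypes; for tau in Ch25h-/- mice DESeq2 called 1 respiratory chain gene. Cytosolic ribosomal proteins had 17 of 82 at an unadjusted p under 0.05 (8.39% of all genes), 15 lower, with a median of -0.15. Among them Rps7 was at -0.34 ± 0.11 (edgeR adjusted p = 0.299). Respiratory chain genes had 16 of 78, 15 lower, with a median of -0.09, and Ndufa4 at -0.59 ± 0.19 (adjusted p = 0.326). Heat-shock chaperones had 6 of 22, all lower, led by Hsp90b1 (-0.31 ± 0.10) and Hspa8 (-0.60 ± 0.19). Within Ch25h+/+ mice these counts were 14 of 82 ribosomal, 12 of 78 respiratory chain and 5 of 22 chaperone genes (6.08% of all genes), with medians of -0.23, -0.16 and -0.11. Within Ch25h-/- mice they were 3, 2 and 1 (6.16% of all genes), with medians of -0.04, -0.07 and -0.10. By the interaction test 2 ribosomal, 2 respiratory chain and 0 chaperone genes had an unadjusted p under 0.05 (3.61% of all genes), and 0 passed edgeR's adjusted threshold. Over alternatives that kept all libraries or used 1 side of the split, Rps7 ranged from -0.613 to -0.0392 and Ndufa4 from -0.894 to -0.141. The members' median mitochondrial percentage averaged 0.0808 in Ch25h+/+ Tau- (0.204 in replicate 3) and 0.0264 in Ch25h+/+ Tau+. It averaged 0.0479 in Ch25h-/- Tau- and 0.0302 in Ch25h-/- Tau+. Its relation to these lists was not tested. Cholesterol synthesis and uptake genes had 0 of 25, with Cyp51, an enzyme of the pathway, at -0.22 ± 0.10. Among oxysterol and efflux genes, 1 of 17 did: Abca1, the cholesterol exporter that oxysterols induce, at 6.44 to 11.8 normalised CPM in Tau- and 9.66 to 15.5 in Tau+ libraries (log2 fold change 0.57 ± 0.13, adjusted p = 0.128). Immature granule genes had 3 of 6, 2 higher and 1 lower: Neurod2 at 0.42 ± 0.12 (adjusted p = 0.246), Sox4 at 0.80 ± 0.32 (adjusted p = 0.462) and Dcx at -0.39 ± 0.18 (adjusted p = 0.592). Neuropeptides had 2 of 14, Pcsk1 at -0.73 ± 0.22 and Grp at -0.43 ± 0.19; activity-regulated genes had 2 of 20, with Junb at 0.56 ± 0.20 and Nr4a3 at -1.02 ± 0.47. Tau kinases and phosphatases had 1 of 25, Ppp2r2b at -0.31 ± 0.09, and cGAS-STING signalling genes 1 of 10, Ifnar2 at 0.23 ± 0.10.

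The summed level of interferon-stimulated genes was above the highest Tau- library in 7 of the 8 Tau+ libraries, by amounts that differed widely. Summed over the 32 genes of the list found in the files, the members held 80.9, 86.6, 75.9 and 80.1 CPM in Ch25h+/+ Tau- libraries and 83.6, 68.4, 81.5 and 81.2 CPM in Ch25h-/- Tau- libraries. In Ch25h+/+ Tau+ they held 196, 128, 96.7 and 108 CPM, and in Ch25h-/- Tau+ 367, 119, 76.7 and 316 CPM. The Ch25h-/- Tau+ group held the 2 highest libraries and also, in replicate 3, one within the Tau- range. Of 33 listed genes 15 passed the filter on low counts, and the rest were not tested. Of the 15, 13 had an unadjusted p under 0.05, all higher, against 8.39% of all tested genes, and 0 were called by edgeR (DESeq2 called 2). Genes can pass that filter through the libraries where they are high, so the 13 of 15 describes the tested genes alone. H2-K1 and H2-D1, which encode antigen-presenting proteins, gave log2 fold changes of 1.22 ± 0.29 and 1.23 ± 0.30 (edgeR adjusted p = 0.130 and 0.165).

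A small part of the granule neurons held many UMIs of these genes, and its size differed between Tau+ libraries. Members with at least 10 UMIs of the list were 39 of 472 (8.26%) in Ch25h-/- Tau+ replicate 1 and 18 of 296 (6.08%) in replicate 4. They were 10 of 398 (2.51%) in Ch25h+/+ Tau+ replicate 1, 0.731% and 0.262% in the other Ch25h-/- Tau+ libraries, and 0.177% to 0.943% in the other Ch25h+/+ Tau+ libraries. In Tau- libraries 1 nucleus of 865 reached that number in Ch25h-/- Tau- replicate 4 (0.116%) and none in the other 7. The top 5% of members by list UMIs held 38.8%, 40.6% and 42.5% of all list UMIs in Ch25h-/- Tau+ replicates 1 and 4 and Ch25h+/+ Tau+ replicate 1, in that order, and 26.2% to 33.8% in the remaining libraries. In nuclei thinned to 2000 UMIs, 36.7% and 33.8% of members had a list UMI in Ch25h-/- Tau+ replicates 1 and 4, against 12.1% to 18.2% in Tau- libraries and 13.9% to 23.4% in the other Tau+ libraries.

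Ifit1 shows how a single gene of the list varied between libraries. It lies at chr19:34640871-34650009, near Ch25h (chr19:34473778-34475164). Whether DNA linked to Ch25h bears on its values was not tested. Ifit1, an antiviral protein that binds foreign RNA, was at 66.04, 4.29, 0.857 and 37.8 normalised CPM in Ch25h-/- Tau+ and at 10.4, 4.15, 0.201 and 0.933 in Ch25h+/+ Tau+. It was at 0 to 0.674 and 0.233 to 1.03 in the Tau- groups. It was named after its values were seen, and it did not pass (log2 fold change 4.60 ± 1.22, edgeR adjusted p = 0.247). In all nuclei other than granule neurons the summed list was 350, 295, 168 and 312 CPM in Ch25h-/- Tau+. In barcodes of under 100 UMIs it was 639, 556, 268 and 518 CPM there and 213 to 341 CPM in Tau- libraries. Without doublets the members of that group stood at 350, 105, 68.8 and 316 CPM. CA1 nuclei stood at 453 CPM in Ch25h+/+ Tau+ replicate 1, above its granule nuclei. In Ch25h-/- Tau+ they stood at 209, 231, 79.4 and 129 CPM, below the granule nuclei in replicates 1 and 4, above them in replicate 2 and close to them in replicate 3. Free RNA's part in these values was not tested.

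**Figure D3:**
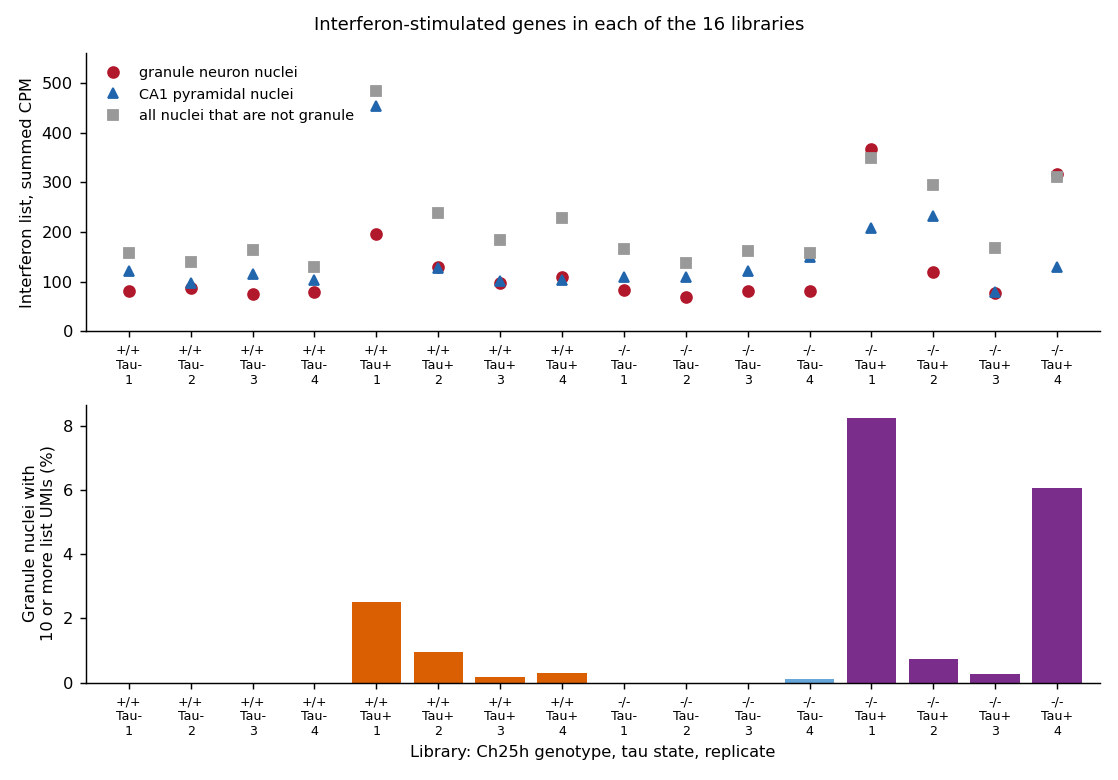
Top, the summed CPM of 32 interferon-stimulated genes in granule neuron nuclei, CA1 pyramidal nuclei and all other nuclei of each library. Bottom, the percentage of granule nuclei with 10 or more UMIs of the list. The Ch25h-/- Tau+ replicates 1 and 4 reach 8.26% and 6.08%, and 7 of the 8 Tau- libraries are at 0.

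With Ch25h intact, tau gave 5 called genes of 13895 (0.036%), and with Ch25h deleted 7 (0.0504%). At an unadjusted p under 0.05 there were 845 (6.08%) and 856 (6.16%). These 2 comparisons use different libraries. The chromosome 3 genes Gm43049, Gm32754 and 1700030L20Rik were called in each. In Ch25h+/+ mice the others were Inpp5d and Fli1, which in brain are mainly known as genes of microglia. Inpp5d was at 0.666, 1.92, 0.674 and 0 normalised CPM in Tau- and at 3.91, 6.35, 5.21 and 6.84 in Tau+ libraries (log2 fold change 2.69 ± 0.44, edgeR adjusted p = 0.0165). Fli1 was at 0.222, 0.320, 1.01 and 0 in Tau- and at 2.93, 3.66, 3.61 and 3.73 in Tau+ (3.09 ± 0.53, adjusted p = 0.0256). These values rest on few molecules, with 11 and 5 UMIs in all 4 Tau- libraries, and without doublets both genes fell under the filter on low counts. So did 1700030L20Rik, which left 2 calls, Gm43049 and Gm32754. Leaving out 1 library gave 2 to 6 calls. Dropping Ch25h+/+ Tau- replicate 1 or Ch25h+/+ Tau+ replicate 3 left 2, and dropping replicates 2 or 3 of the former group or 4 of the latter left 3. The summed level of 8 microglial markers in the members, Inpp5d among them, was 126 to 185 CPM in Ch25h+/+ Tau+ and 141 to 169 in Ch25h+/+ Tau-.

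In Ch25h-/- mice the other 4 called genes were Prnp (log2 fold change 0.78 ± 0.12, edgeR adjusted p = 0.0100), Adamts6 (1.47 ± 0.23, adjusted p = 0.0131), Trf (1.24 ± 0.21, adjusted p = 0.0268) and Kitl. Kitl, the ligand of the receptor kinase Kit, fell from 51.4, 63.7, 57.1 and 51.8 normalised CPM to 30.4, 25.1, 36.6 and 40.3 (-0.78 ± 0.14, adjusted p = 0.04995, just under the threshold; -0.87 without doublets, adjusted p = 0.0108). Kitl was called in 6 of the 16 fits that left out a library, with adjusted p from 0.0331 to 0.280, and was lost with at least 6 marker UMIs (adjusted p = 0.274). Trf was called in 7 of the 16 and was lost without doublets (0.79, adjusted p = 0.457). Prnp was called in 14 of the 16 and Adamts6 in 13, and neither passed in every other alternative. Without doublets 6 genes were called, 5 of them shared with the 7, and 1700030L20Rik fell under the filter. In Ch25h+/+ mice the log2 fold change of Kitl was -0.21 ± 0.15 (adjusted p = 0.874). Prnp and Adamts6 gave 0.49 ± 0.12 (adjusted p = 0.443) and 0.58 ± 0.25 (adjusted p = 0.793) there. Of 3 genes that just missed the threshold, Tox3 was at 35.9 to 46.4 normalised CPM in Tau- and at 15.97 to 32.9 in Tau+ (-0.91 ± 0.17, adjusted p = 0.0512), Slit2, a guidance cue, gave -0.85 ± 0.16 (adjusted p = 0.0859) and Gm45321 -1.62 ± 0.30 (adjusted p = 0.0608). Leaving out 1 library gave 2 to 17 calls. Dropping replicates 1, 2, 3 and 4 of Ch25h-/- Tau- in turn gave 11, 3, 2 and 17, and dropping replicate 1 or 3 of Ch25h-/- Tau+ gave 4 and 15. By the interaction test the tau effects of these genes did not differ past the threshold between genotypes, with log2 differences (Ch25h-/- minus Ch25h+/+) of -0.57 ± 0.21 for Kitl, 0.88 ± 0.34 for Adamts6, 0.28 ± 0.17 for Prnp and 0.47 ± 0.31 for Trf (edgeR adjusted p = 0.9996 for each).

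In the comparison of Ch25h-/- with Ch25h+/+ over both tau states, named Ch25h loss for short, 1 gene of 13895 passed (0.0072%). That gene was Pyroxd2, which encodes a mitochondrial oxidoreductase. It fell in every library labelled Ch25h-/-. In Ch25h+/+ Tau- its normalised CPM was 5.33, 4.48, 4.38 and 2.48, and in Ch25h+/+ Tau+ 9.76, 5.86, 8.42 and 7.15. In Ch25h-/- Tau- it was 2.05, 0.700, 0.703 and 0.703, and in Ch25h-/- Tau+ 0.647, 1.61, 0.571 and 0.840, below every Ch25h+/+ library. Over all tested genes 0.0144% showed no such overlap. The log2 fold change was -2.50 ± 0.27 (SE; edgeR adjusted p = 0.000167), -2.67 without doublets (adjusted p = 0.000615) and -2.15 in CA pyramidal nuclei (adjusted p = 0.0254). The call held in each of the 16 fits that left out a library, with adjusted p from 2.22e-05 to 0.00125. In Tau+ mice it was the 1 called gene (0.0072%; -2.95 ± 0.39, edgeR adjusted p = 0.00288). In Tau- mice 0 genes were called (0%) at edgeR's adjusted p, with 371 (2.67%) at an unadjusted p under 0.05 and 3 by DESeq2, and Pyroxd2 gave -2.04 ± 0.38 (adjusted p = 0.211).

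Pyroxd2 lies at chr19:42725858-42752775, on the chromosome of Ch25h (chr19:34473778-34475164) and 8.26 Mb from it. Of the 10 genes with the lowest p for Ch25h loss, 9 were on this chromosome. They were Pyroxd2, Gm35867, Sf3b2, Arl3, Gbf1, Hpse2, Borcs7, Neurl1a and Gm34299, and 8 of them lay within 15 Mb of Ch25h; Sf3b2, a splicing factor, lay 29.2 Mb away. Between 5 and 10 Mb from Ch25h 11 of 69 tested genes (15.9%) had an unadjusted p under 0.05, and between 10 and 15 Mb 13 of 78 (16.7%). Within 1 Mb 0 of 5 did, between 1 and 5 Mb 1 of 40, and beyond 15 Mb 7 of 264 (2.65%). On all other chromosomes 317 of 13431 did (2.36%). Of the 11 and 13 genes in those windows 8 and 9 were higher in Ch25h-/- libraries. Distances are between gene midpoints, and which DNA the mice carry around Ch25h was not tested.

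**Figure D4:**
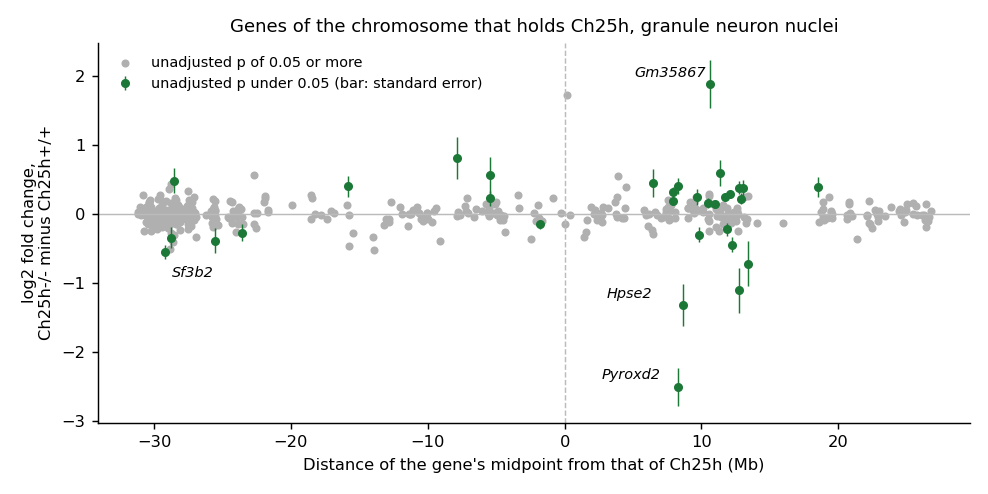
Each dot is a tested gene of the chromosome that holds Ch25h, by its distance from Ch25h in Mb (horizontal, with Ch25h at 0) and its log2 fold change for Ch25h loss over both tau states (vertical); green dots have an unadjusted p under 0.05 and carry their standard error. Of 32 such genes, 11 lie between 5 and 10 Mb and 13 between 10 and 15 Mb from Ch25h, with Pyroxd2 lowest at -2.50.

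The other genes of this group did not pass. Sf3b2 was at 69.0, 120, 119 and 109 normalised CPM in Ch25h+/+ Tau- and at 73.9, 83.7, 114 and 89.9 in Ch25h+/+ Tau+, against 65.8 to 70.05 and 60.6 to 69.4 in the libraries labelled Ch25h-/- (log2 fold change -0.55 ± 0.10, edgeR adjusted p = 0.173). Arl3, a small GTPase of cilia and microtubules, was at 62.2 to 85.3 in Ch25h+/+ and at 83.5 to 96.9 in Ch25h-/- libraries (0.29 ± 0.06, adjusted p = 0.688). Gbf1, a Golgi exchange factor, was at 112 to 139.96 and 138 to 159 (0.24 ± 0.05, adjusted p = 0.688). Hpse2, a heparanase-like protein, gave -1.32 ± 0.30, Borcs7 -0.44 ± 0.10, Neurl1a 0.38 ± 0.09 and Gm34299 0.32 ± 0.08 with adjusted p from 0.688 to 0.9999. Gm35867 was at 0.311 to 1.92 in Ch25h+/+ and at 1.43 to 4.62 in Ch25h-/- libraries (1.88 ± 0.34, adjusted p = 0.155). The tenth gene, 1810024B03Rik, is on another chromosome (0.63 ± 0.16, adjusted p = 0.9999).

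**Figure D5:**
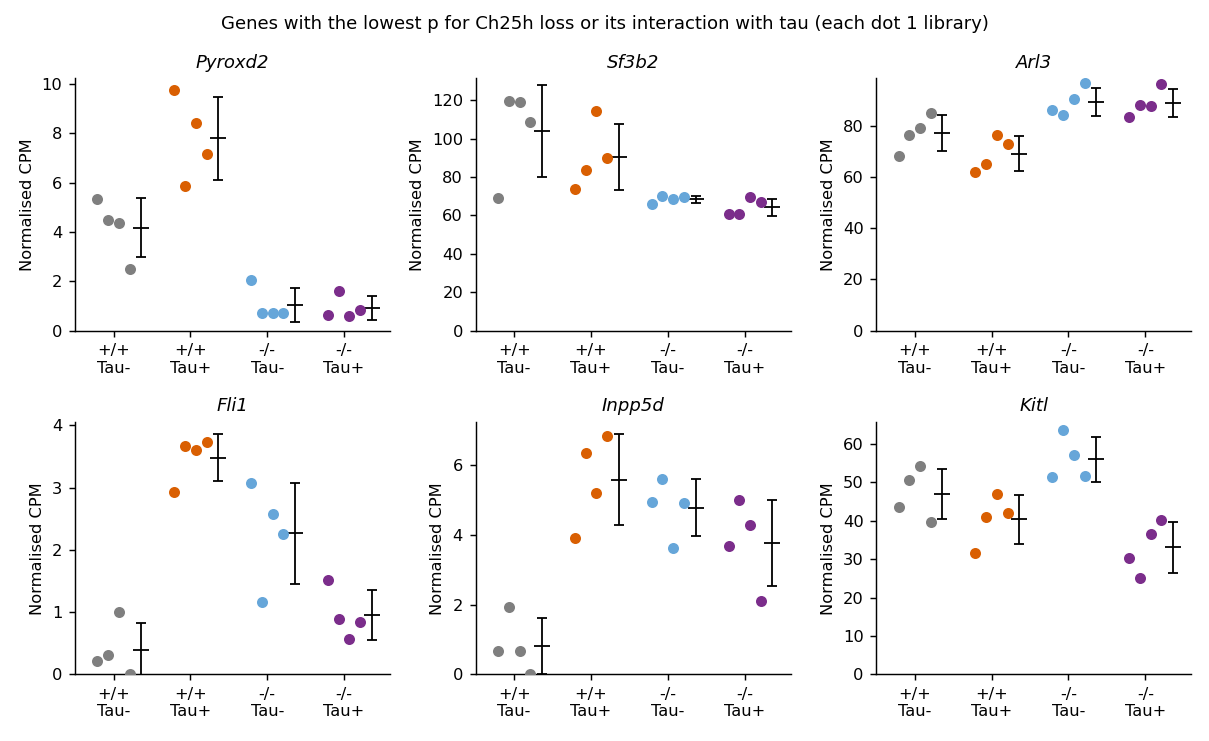
Normalised CPM of 6 genes in granule neuron nuclei, 1 dot for each library, with the mean and SD of 4 libraries beside each group. Pyroxd2 is below 2.06 in every Ch25h-/- library and above 2.47 in every Ch25h+/+ library; Fli1 and Inpp5d are low in Ch25h+/+ Tau-, and Kitl is lowest in Ch25h-/- Tau+.

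None of the lists that touch the enzyme's known roles held a called gene with Ch25h loss. Ch25h makes an oxysterol that restrains cholesterol synthesis and activates cholesterol efflux, and interferon induces it. Cholesterol synthesis and uptake genes had 1 of 25 tested genes at an unadjusted p under 0.05, Mvk, a mevalonate pathway kinase (log2 fold change -0.49 ± 0.21), and a median of 0.06. Oxysterol and efflux genes had 0 of 17, with Abca1 at -0.24 ± 0.13 and Soat1, which esterifies cholesterol, at -0.21 ± 0.11. Interferon-stimulated genes had 0 of 15, and cGAS-STING signalling genes 1 of 10, with the kinase Tbk1 at 0.13 ± 0.06 and Samhd1 at -0.28 ± 0.14. Granule identity genes had 0 of 14 and vesicle genes 1 of 32. Among glutamate receptors Grin2d (0.44 ± 0.18) was the 1 of 30, and among axon guidance genes Ntng1, a netrin-like adhesion protein (0.19 ± 0.06), the 1 of 52. The remaining lists had 0 or 1 such gene each in this contrast. In Tau+ mice alone Ch25h loss gave 4 of 15 interferon-stimulated genes at an unadjusted p under 0.05, all higher (list median 0.40). It gave 4 of 17 oxysterol and efflux genes, 2 higher and 2 lower, and the share of all genes was 3.61%. Interferon genes can pass the filter on low counts through the libraries where they are high, so the 4 of 15 describes the tested genes alone. The summed interferon list was at 367, 119, 76.7 and 316 CPM in Ch25h-/- Tau+ members. In Ch25h+/+ Tau+ members it was at 196, 128, 96.7 and 108 CPM, so the groups overlap. Over both tau states none of the 20 lists held a call by edgeR or DESeq2. Over all tested genes 2.51% had an unadjusted p under 0.05.

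In Tau- mice the genes with the lowest p for Ch25h loss were Inpp5d (log2 fold change 2.44 ± 0.43, edgeR adjusted p = 0.193), Pyroxd2 and Fli1 (2.51 ± 0.54, adjusted p = 0.644). This comparison and that of tau in Ch25h+/+ mice share the Ch25h+/+ Tau- libraries, where both Inpp5d and Fli1 were low. Pid1 gave -0.73 ± 0.17 (adjusted p = 0.9996) and the secreted protein gene Vwc2l -1.47 ± 0.34 (adjusted p = 0.9996). Leaving out 1 library gave 0 or 1 call, and it gave 1 without Ch25h+/+ Tau- replicate 1 or 2 or Ch25h-/- Tau- replicate 1. In Tau+ mice Fli1 gave -1.80 ± 0.42 (adjusted p = 0.999998), Arl3 0.36 ± 0.09 (adjusted p = 0.999998) and Gbf1 0.28 ± 0.08 (adjusted p = 0.999998).

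The interaction, which asks whether tau acted differently with and without Ch25h, called 1 gene of 13895 (0.0072%), Fli1, an ETS transcription factor of microglia and blood vessels. Its tau effect was lower in Ch25h-/- than in Ch25h+/+ mice by 4.31 ± 0.68 on the log2 scale, so that the signed value was -4.31 (edgeR adjusted p = 0.0436). Fli1 was at 0.388 ± 0.436 normalised CPM (SD, n = 4, over 5 UMIs) in Ch25h+/+ Tau- and at 3.48 ± 0.373 in Ch25h+/+ Tau+. With Ch25h deleted it was at 2.27 ± 0.809 in Tau- and at 0.954 ± 0.397 in Tau+ libraries. The call held in 3 of the 16 fits that left out a library and was gone without doublets, where 0 genes were called, and also with members of at least 6 marker UMIs. It held without Ch25h+/+ Tau- replicate 3, Ch25h-/- Tau- replicate 2 or Ch25h-/- Tau+ replicate 1. Inpp5d gave -2.95 ± 0.54 (adjusted p = 0.175), the signalling protein Rspo3 -0.87 ± 0.18 (adjusted p = 0.602), Slit2 -0.92 ± 0.23 and the abundant noncoding RNA Malat1 0.40 ± 0.10. At an unadjusted p under 0.05 there were 502 genes (3.61%).

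Set against the CA pyramidal nuclei of the same libraries, tau's effect differed in 1 of 13409 genes (0.00746%), Ryr3, by edgeR's quasi-likelihood test with the library as a block. Its log2 fold change with tau was lower by 0.36 ± 0.06 in granule neurons, a signed value of -0.36 (adjusted p = 0.0204). The effect was -0.23 ± 0.06 in granule nuclei (adjusted p = 0.205) and 0.11 ± 0.06 in CA pyramidal nuclei (adjusted p = 0.785) when each was fitted alone. In granule nuclei Ryr3 was at 419 to 498 normalised CPM in Tau- and at 327 to 454 in Tau+ libraries, and in CA pyramidal nuclei at 962 to 1312 and 1157 to 1369. Leaving out 1 library kept the call in 9 of 16 fits, with adjusted p from 0.00614 to 0.208 and 0 to 10 genes called. At an unadjusted p under 0.05 there were 944 (7.04%). Prnp gave a difference of -0.07 ± 0.08 (adjusted p = 0.926).

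Some of the genes that varied most between granule nuclei are known from other cell types. Genes were ranked by overdispersion, the variance between nuclei beyond counting noise divided by the squared mean, in counts thinned to 2000 UMIs. The 15 leading genes of 6885 included Enpp2, Tshz2, Gpc5, Galntl6, Dpp10, Luzp2, Mgat4c, Gpc6, Pde4b, Etl4, Chrm3, Sorcs1, Sox5 and Ldb2. Enpp2 (median 44.5 over libraries), the enzyme autotaxin, is known from oligodendrocytes, and Gpc5 (23.2) from astrocytes. The median over all ranked genes was 0.137. Genes were ranked only where their mean was at least 0.02 UMIs per nucleus in every library. Without doublets 3 of the 15 stayed, Pde4b, Galntl6 and Dpp10, and most of the others fell under that minimum and were not ranked. Some of those kept a high median without doublets, as Etl4 (18.5), Sorcs1 (18.1) and Chrm3 (17.3) did. Among the genes still ranked the first were Pde4b (13.2), a phosphodiesterase that ends cAMP signals, Sorcs3 (11.8), a sorting receptor, Galntl6 (9.73), Dpp10 (8.495) and Il1rapl2 (7.64). The share of members with a Sorcs3 UMI was 11.7% after thinning, below the 15.4% in oligodendrocyte nuclei. Having at least 1 Sorcs3 UMI therefore cannot tell a member from background. That share does not single out nuclei with many Sorcs3 UMIs, and whether oligodendrocyte nuclei make Sorcs3 themselves was not tested.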

How the data were processed

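RNA was measured in nuclei of mouse hippocampus with a 10x 3' kit. The deposited matrices hold raw UMI counts per gene and barcode; per the submitters' processing notes they came from Cell Ranger 3.1.0 and the mm10 build, while the file headers name Cell Ranger 4. Nuclei were selected with the marker rule, and their counts were summed per library. The 7 contrasts, and an 8th model with CA pyramidal sums, were fitted on the 4 groups with edgeR 4.0.16 in R 4.3.3 (filterByExpr, TMM, quasi-likelihood), after being tested on simulated data. DESeq2 1.42.0 was an alternative, and Scrublet ran in scanpy 1.11.5. Shares were compared with exact permutation tests. Rare genes can pass the filter through high libraries. Positions are from GENCODE on GRCm38. Genes were named by rule: called genes by fold change, the 10 lowest p per contrast with a mean of at least 10 UMIs, a fixed set, 2 per list for tau and for Ch25h loss, and the 15 with the highest overdispersion; some of these are not reported here. Members and lists were chosen with earlier results of these data known. Library totals were 51270831 to 84870650 UMIs; intervals cover counting error only.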

Additional observations from a re-analysis of the deposited data

Results flagged for a closer look

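Of 276 groups of 4 libraries, 17 held 1 library set apart from the other 3; chance flags about 1 in 20 groups. Among Tau- libraries the near-absent chromosome 3 RNAs had single UMIs: Gm43049 at 0.141 normalised CPM in Ch25h-/- Tau- replicate 4, Gm32754 at 0.233 in Ch25h-/- Tau- replicate 2 and 1700030L20Rik at 0.414 in Ch25h+/+ Tau- replicate 4. In the Ch25h-/- Tau- group the distant values were Trf at 14.5 and Pyroxd2 at 2.05 in replicate 1, Cacng3 at 179 and Ppp2r2b at 203 in replicate 2, Unc5c at 473 in replicate 3 and Gabrb2 at 425 in replicate 4. In the Ch25h+/+ Tau- group they were Ppp2r2b at 139.6 in replicate 1, Neurl1a at 49.8 in replicate 3 and Vwc2l at 16.1 in replicate 4. In the Ch25h+/+ Tau+ group they were Fli1 at 2.93 in replicate 1, Ntng1 at 660.4 in replicate 3, and Kcnn2 at 130.9 and Malat1 at 70898 in replicate 4. In the Ch25h-/- Tau+ group Mapt was at 309 in replicate 1.

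The tau effect on Fli1 differed between the Ch25h genotypes by the interaction test, with a log2 difference of -4.31. The call held in 3 of the 16 fits that left out a library, was gone without doublets and with at least 6 marker UMIs, and rests on 5 UMIs in the Ch25h+/+ Tau- group.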

How the results depend on the processing

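No paired analysis was possible because the labels carry no replicate numbers, so those used here follow the order of the deposit. The number of called genes for tau over both Ch25h genotypes was 53 with DESeq2, 38 without the filter on low counts, 41 with a term for the split of the libraries, 5 without doublets, 6 with at least 6 marker UMIs, 60 on the first side of the split alone and 18 on the second, and ranged from 8 to 31 when each library was left out. For tau in Ch25h+/+ it was 8 with DESeq2, 2 without doublets, 2 with at least 6 marker UMIs, 8 on the first side and 14 on the second (range 2 to 6). For tau in Ch25h-/- it was 23 with DESeq2, 17 without the filter, 27 on the first side and 4 on the second (range 2 to 17). Ch25h loss over both tau states gave 2 with DESeq2, 3 without the filter, 0 on the first side and 3 on the second (range 1 to 2). Ch25h loss in Tau+ gave 0 with at least 6 marker UMIs and 0 on either side (range 1 to 1), and in Tau- 3 with DESeq2, 2 without the filter and 4 on the second side (range 0 to 1). The interaction gave 3 with DESeq2, 2 without the filter, and 0 without doublets, with at least 6 marker UMIs and on either side (range 0 to 1). The difference from CA pyramidal nuclei gave 0 to 10. A side of the split holds 2 libraries a group, and doublets and marker sums take out nuclei. The same values defined the sides, so counts with the split term or on 1 side are descriptions and no independent check. Beyond that the cause of these differences in counts was not tested.

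The effects on the share, in percentage points, ranged when each library was left out from -1.92 to -1.01 (tau over both), -0.158 to 1.13 (tau in Ch25h+/+), -4.33 to -2.51 (tau in Ch25h-/-), 1.503 to 2.41 (Ch25h loss over both), -0.640 to 0.649 (in Tau+) and 3.003 to 4.82 (in Tau-). The sign turned for tau in Ch25h+/+ on the first side (-0.656) and without Ch25h+/+ Tau+ replicate 3 (-0.158). For Ch25h loss in Tau+ it turned with thinning (-0.0908), without doublets (-0.0125), without the marker sum (-0.0921), on the second side (-1.47) and without Ch25h+/+ Tau+ replicates 1 (-0.276), 2 (-0.106) or 4 (-0.253) or Ch25h-/- Tau+ replicate 2 (-0.640). Of 97 gene results, 2180 values kept side and direction, 143 lost the call, 61 gained one and 0 reversed. Of these results 27 were called, and 7 of the 27 stayed past the threshold in every alternative that gave a value. The one-sided fits, the excluded marker sum and the doublet-free overdispersion were chosen after seeing the data.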

Other observations

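Among the fixed genes, several inducible and peptide genes had wide ranges across libraries. Arc varied by 54.9% (1.25 to 8.37 normalised CPM), Egr1 by 46.6% (0.622 to 9.66), Nr4a1 by 41.3% (3.58 to 16.2) and Pdyn by 36.6% (2.28 to 10.00), all at low levels. After thinning, the shares of members with a UMI of Arc (0.514%), Egr1 (0.643%) and Nr4a1 (1.10%) were below those of oligodendrocyte nuclei (2.53%, 0.941% and 1.57%). These 3 genes therefore cannot be told from background by this measure. Whether oligodendrocyte nuclei make these transcripts themselves was not tested. Homer1, a postsynaptic scaffold with an activity-induced short form, varied by 22.5% (62.9 to 138). Apoe, the lipid carrier made mainly by astrocytes and microglia, varied by 39.7% (22.9 to 119); after thinning it had a UMI in 11.1% of members and in 60.7% of oligodendrocyte nuclei.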
